A study of Homo sapiens with 22 samples.

Results

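Binding of tagged estrogen receptor alpha (ESR1) was described at 2 loci of genes that drive proliferation: a 300 kb window on chromosome 8 around MYC, from 128600000 to 128900000, and a 240 kb window on chromosome 11 around CCND1, from 69280000 to 69520000, in the hg19 (GRCh37) build. Members were all peaks of the 20 deposited peak lists that overlapped either window. There were 240 such peaks at MYC and 213 at CCND1, of 356467 peaks in all lists. Overlapping peaks of different libraries (1 bp or more) formed 1 region, which gave 30 regions at MYC, numbered M1 to M30 along the chromosome, and 52 at CCND1, numbered C1 to C52. All lists together gave 93612 regions.

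The libraries were chromatin immunoprecipitation sequencing (ChIP-seq) samples of Ishikawa cells, an established endometrial adenocarcinoma line, precipitated with an antibody to a FLAG tag on ESR1. All cells carried that tag and were held in hormone-deprived medium before treatment. Wild-type ESR1 was represented by 2 clones and ESR1 with D538G, a substitution in its ligand-binding domain, by 3 clones, each with 2 replicates per treatment. Cells received 10 nM estradiol (E2) or 0.1% DMSO, the solvent control, for 1 h. This gave 4 wild-type DMSO, 4 wild-type E2, 6 D538G DMSO and 6 D538G E2 libraries. Libraries of a clone share their source, and the labels do not say which of them came from separate cultures, so p-values measure only the spread between these libraries. The 2 input libraries, 1 per genotype, were not used here. Peak lists hold no expression values, so the cell type was not checked against marker genes.

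ESR1 is a nuclear receptor that binds DNA after it takes up estradiol, mostly at enhancers away from gene starts. Substitutions in its ligand-binding domain, D538G among them, are known from breast and endometrial tumours for receptor activity without hormone. MYC encodes a transcription factor that drives growth and cell division and is a classic early estrogen target. PVT1, a long non-coding RNA gene, lies next to MYC and its body holds many regulatory elements. CCND1 encodes cyclin D1, the partner of CDK4 and CDK6 that carries cells from G1 into S phase, and it too is a known estrogen target with distant enhancers.

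The lists differed widely in length, and 3 of the 4 wild-type DMSO lists were the shortest of all. Wild-type DMSO lists held 51 and 29118 peaks in clone 1 and 45 and 1080 in clone 2 (replicates 1 and 2). Wild-type E2 lists held between 5757 and 35344 peaks, D538G DMSO lists between 1619 and 54903, and D538G E2 lists between 1977 and 49223. Read depth is not known. The list labelled D538G E2 clone 2 replicate 1 went against its label in 1 respect: its peak names hold the string "Ctl", as do those of the 5 DMSO lists of replicate 1. The string "Input" stands in the peak names of the 4 replicate 1 lists of D538G clones 1 and 2 and in no other. Comparisons of peak numbers that include D538G libraries are given below also without this clone 2 replicate 1 pair. Signal values served only to order the peaks of 1 list. A peak's percentile is the share of its own list's peaks that had the same or a lower signal, and rank 1 is the strongest peak.

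**Figure D1:**
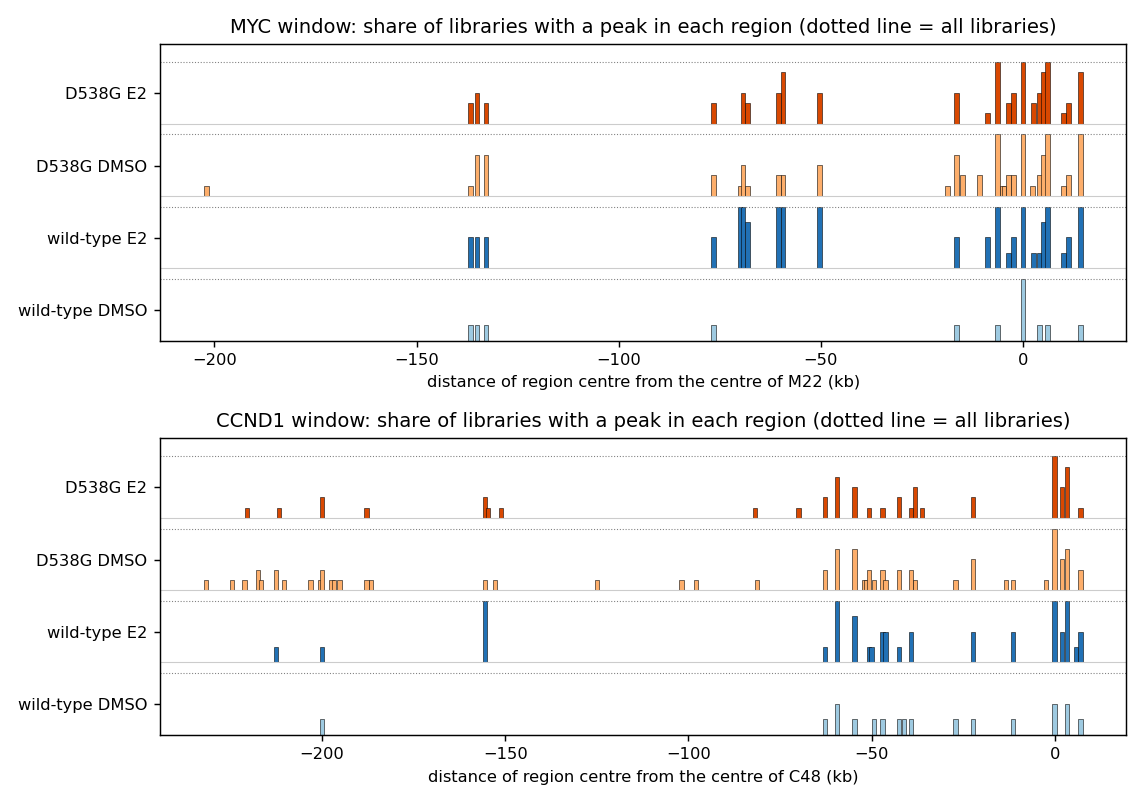
Share of the libraries with a peak in each region (bar height, with 1 row per group and a dotted line at all libraries), against distance in kb from the centre of region M22 in the MYC window and of region C48 in the CCND1 window (x axis). M22 reached the dotted line in all 4 groups, and binding at MYC was gathered on the PVT1 side, while CCND1 had C48 and a spread of regions found in few libraries.

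At MYC, binding was concentrated in a cluster of regions toward the far end of the window, inside the PVT1 locus, rather than at the gene start. The 19 regions M12 to M30 lay within 33.3 kb, and every library had at least 1 peak there. M30 ends at 128897604, close to the window edge at 128900000. Peaks past that edge are not described, so the full extent of the cluster is not known here. Region M22 (chromosome 8, 128882161 to 128884017) had a peak in all 20 libraries. Across the genome 15 of 93612 regions did, 0.0160% of them. The shortest list, with 45 peaks, caps the number of regions that could. The 20 summits at M22 fell within 131 bp of each other, with a median at 128883032. M22 was therefore bound both in wild-type cells that received only DMSO and in every D538G library.

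The percentile of M22 within its list was lower in wild-type DMSO than in the other groups, while its rank did not follow that order. In the wild-type DMSO lists its percentile was 66.7 and 12.6 in clone 1 and 48.9 and 58.8 in clone 2, for replicates 1 and 2. In wild-type E2 it was 96.2 and 92.3 in clone 1 and 96.6 and 96.8 in clone 2. In D538G DMSO the lowest, median and highest percentiles were 92.6, 96.9 and 99.4, and in D538G E2 they were 91.5, 97.4 and 99.9. No wild-type DMSO value reached those of another group. The 51-peak and 45-peak lists placed it at ranks 18 and 24, and the 29118-peak list placed it at rank 25448. In the other groups it reached rank 10 of 1619 peaks in D538G DMSO clone 3 replicate 2 and rank 7 of 6542 in D538G E2 clone 1 replicate 2. It was also rank 314 of 8206 in wild-type E2 clone 1 replicate 1 and rank 423 of 12963 in D538G DMSO clone 1 replicate 1. Those 2 ranks are behind 18 and 24, which come from very short lists. Percentiles come from lists of unequal length and were not tested.

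The neighbours M17, M27 and M30 of M22 were bound in nearly every library except those of wild-type cells in DMSO. Regions M17 (128875977 to 128877416) and M27 (128888746 to 128889726) each had a peak in 17 libraries: 1 of 4 in wild-type DMSO, 4 of 4 in wild-type E2 and 6 of 6 in both D538G groups. Region M30 (128896802 to 128897604) had a peak in 16: 1, 4, 6 and 5 libraries in the same order. Their only wild-type DMSO peak was in the longest list of that group, clone 1 replicate 2. Median summits of M17 and M22 lay 6.46 kb apart, those of M22 and M27 6.19 kb, and those of M27 and M30 8.06 kb. Summits of different libraries spanned 195 bp at M17, 360 bp at M27 and 246 bp at M30.

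M17 and M22 changed places as the strongest peak of the window. M22 led in 13 lists, M17 in 6 and M27 in 1. M17 had the higher signal of the pair in 7 lists, all with at least 19832 peaks. M22 led M17 in 13 lists, none above 31108 peaks, and 3 of these had no M17 peak. At M17 the wild-type E2 percentiles were 64.3 and 95.6 in clone 1 and 41.7 and 87.7 in clone 2. In both clones the replicate 2 list, the longer one, placed it higher. In D538G DMSO the lowest, median and highest values at M17 were 44.3, 96.6 and 99.7, and in D538G E2 they were 21.7, 94.2 and 99.3. M27 was steadier, with a lowest and highest percentile of 88.8 and 95.8 in wild-type E2, 68.8 and 98.8 in D538G DMSO and 53.9 and 99.1 in D538G E2. The lowest of these came from the 1977-peak list of D538G E2 clone 2 replicate 2, which had no peak at M30.

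**Figure D2:**
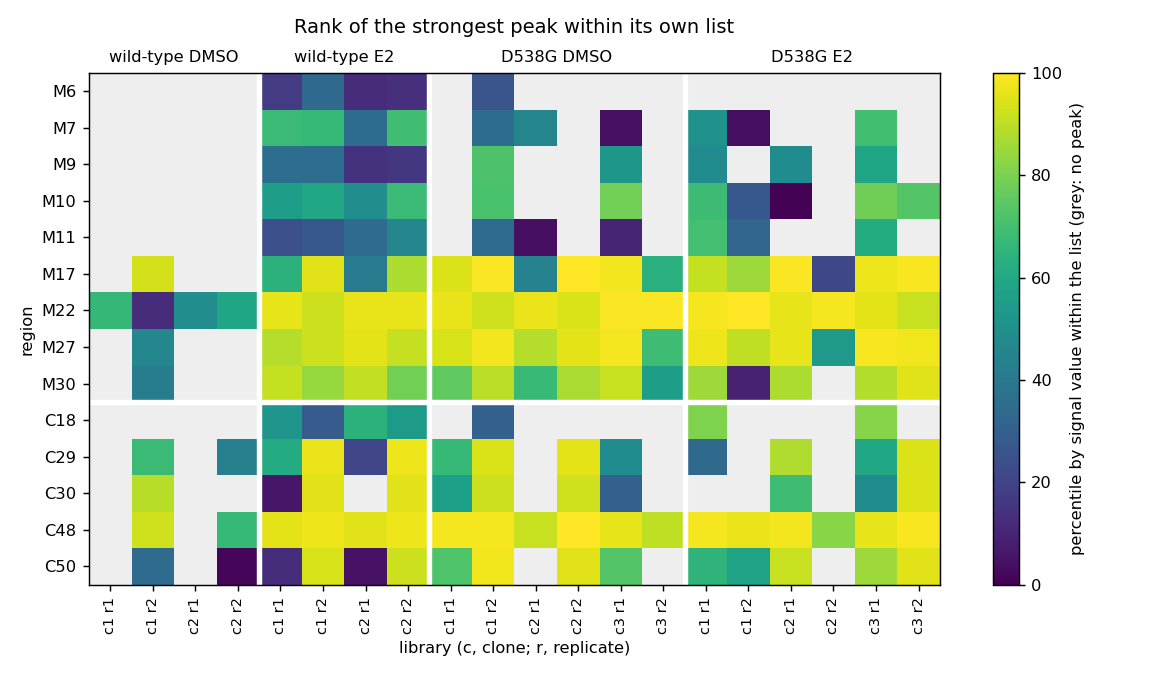
Percentile by signal within its own list (colour, 0 to 100) of the strongest peak of each of the 14 named regions (y axis) in each of the 20 libraries (x axis, by group). Grey marks no peak; M22 is filled in every library, and M6, M7, M9, M10 and M11 are filled in all 4 wild-type E2 libraries and empty in wild-type DMSO.

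Another cluster, M5 to M11, lay between MYC and the far cluster; it held 5 regions bound in all wild-type E2 and no wild-type DMSO libraries. This cluster of 7 regions spans 27.3 kb and starts at M5 (128806017 to 128807080), which covers the start of PVT1. All 4 wild-type E2 libraries had peaks there, 6 and 8 in clone 1 and 5 and 7 in clone 2. The wild-type DMSO libraries had 0 and 2 in clone 1 and 0 and 0 in clone 2. D538G libraries varied: the 6 DMSO libraries held 0, 8, 2, 1, 4 and 0 peaks and the 6 E2 libraries 4, 3, 4, 0, 5 and 3, for clones 1 to 3 with replicate 1 before replicate 2. The D538G groups overlapped each other and the wild-type E2 group.

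The regions M6, M7, M9, M10 and M11 each had a peak in 4 of 4 wild-type E2 libraries and in 0 of 4 wild-type DMSO libraries. Two-sided Fisher's exact test gave p = 0.0286 for each, the smallest value that 4 against 4 libraries allow, and p = 0.306 after Benjamini-Hochberg adjustment over 29233 regions. Of those regions, 9.34% had the same pattern. In D538G cells M7 and M11 each had a peak in 3 of 6 DMSO and 3 of 6 E2 libraries, M9 in 2 and 3, and M10 in 2 and 5. At M10 (128823449 to 128824010) the percentile was 55.8 and 59.6 in wild-type E2 clone 1 and 48.9 and 68.0 in clone 2. The 2 D538G DMSO lists with an M10 peak gave 71.3 (clone 1 replicate 2) and 78.6 (clone 3 replicate 1), and the 5 D538G E2 lists ranged from 0.572 to 78.5. These were mostly peaks of middling strength, unlike those at M22 outside the wild-type DMSO lists.

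Region M6 (128813009 to 128813380) was the 1 region of either window that separated the genotypes under E2. It had a peak in all 4 wild-type E2 libraries and in none of the 6 D538G E2 libraries, with Fisher's exact p = 0.00476 and an adjusted p = 1. Of all 35729 regions tested, 1.21% had an unadjusted p under 0.05 here, 0.890% bound less often in D538G and 0.325% more often. Peaks in all wild-type and no D538G library were found at 0.146% of them, and the reverse at 0.0252%. None of the 40 regions tested in the windows was bound more often in D538G by this threshold. M6 was a weak site where it was found, with percentiles of 17.5 and 34.0 in wild-type E2 clone 1 and 12.7 and 13.9 in clone 2. Its only other peak, at percentile 26.4, was in D538G DMSO clone 1 replicate 2. At a −log10 q of at least 20 it no longer passed the unadjusted threshold.

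The start of MYC itself was bound in fewer libraries. Region M3 (128747119 to 128748900), which covers it, had a peak in 10 libraries: 1 of 4 in wild-type DMSO, 2 of 4 in wild-type E2, 4 of 6 in D538G DMSO and 3 of 6 in D538G E2. It was chosen for description after its values were seen, as were M5 and the block boundaries. In wild-type cells M3 was found at percentile 85.6 in DMSO clone 1 replicate 2 and at 91.5 in E2 replicate 2 of each clone. In D538G DMSO the 4 values ran from 35.6 to 86.7 and in D538G E2 the 3 values from 30.2 to 86.0. The E2 lists of wild-type replicate 1 had 12 and 9 peaks in the window and none at M3. The median summit of M3 lay 134.5 kb from that of M22.

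The number of peaks in the MYC window gave the group comparisons. Wild-type DMSO libraries had 1 and 15 peaks in clone 1 and 1 and 1 in clone 2, and wild-type E2 libraries had 12 and 23 in clone 1 and 9 and 23 in clone 2. D538G DMSO libraries had a lowest, median and highest number of 6, 11 and 31, and D538G E2 libraries 3, 14 and 18. Each of the 4 wild-type pairs of the same clone and replicate number had more peaks under E2, and 4 of 6 D538G pairs did. In each wild-type pair the whole list was longer under E2 too: 8206 against 51 and 35344 against 29118 peaks in clone 1. In clone 2 it was 5757 against 45 and 31108 against 1080 (replicates 1 and 2). In wild-type DMSO 3 of 4 libraries stood lowest, at 1 peak each. Its clone 1 replicate 2, with 15, lay within the range of each other group, and those groups overlapped.

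**Figure D3:**
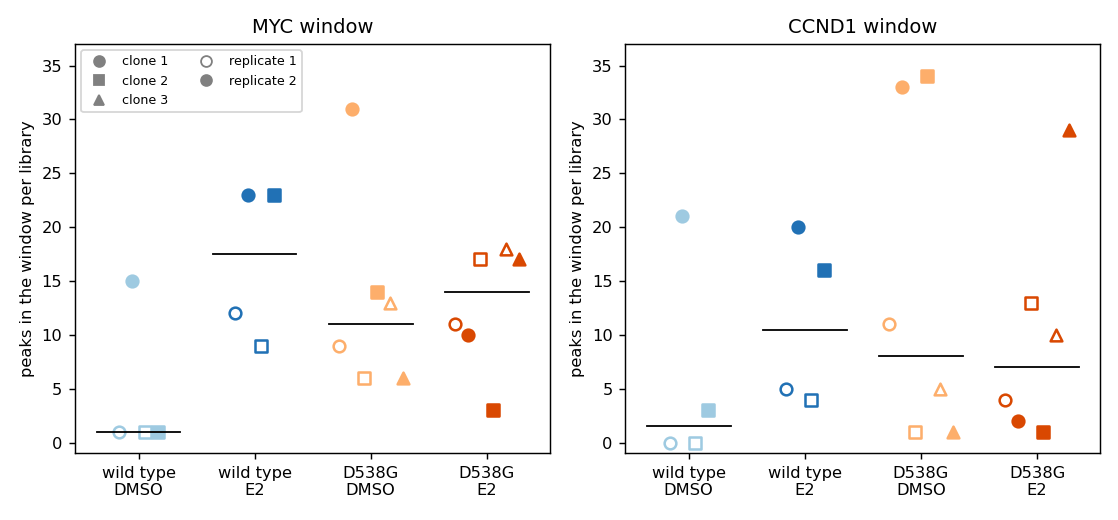
Number of peaks (y axis) in the MYC and CCND1 windows in each library by group (x axis). Each point is 1 library, open for replicate 1 and filled for replicate 2, with the marker shape giving the clone and the line the group median; 3 of 4 wild-type DMSO libraries had 1 peak at MYC, and the 2 D538G groups overlap in both windows.

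On the log2(peaks + 1) scale the wild-type DMSO mean was 1.75 ± 1.50 (SD, n = 4) and the wild-type E2 mean 4.05 ± 0.64 (SD, n = 4), a difference of 2.30 that was not past the threshold (two-sided exact permutation p = 0.0857, or 0.286 when adjusted over 10 window tests). Without wild-type DMSO clone 1 replicate 2, the 1 long list of that group, it was 3.05 (exact permutation p = 0.0286). That was the only 1 of 8 single omissions to pass 0.05. In D538G cells the DMSO mean was 3.61 ± 0.83 and the E2 mean 3.61 ± 0.85 (SD, n = 6 each), with a difference of −0.0031 (exact permutation p = 0.998). The change per pair was 2.30 ± 1.26 (SD, n = 4) in wild type and −0.0031 ± 1.41 (SD, n = 6) in D538G. The E2 effect differed by −2.30 (D538G minus wild type, exact permutation p = 0.0286), and this did not hold after adjustment (exact permutation, adjusted p = 0.238).

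In DMSO alone, D538G libraries exceeded wild-type ones by 1.86 on the log2 scale (exact permutation p = 0.0476, adjusted p = 0.238), again not past the adjusted threshold. Without the D538G clone 2 replicate 1 pair the difference was 2.02 (exact permutation p = 0.0714). Leaving that pair out also gave −0.28 for E2 minus DMSO in D538G (exact permutation p = 0.635), −0.56 between genotypes under E2 (exact permutation p = 0.357) and −2.57 for the difference in E2 effect (exact permutation p = 0.0397). Within replicate 1 the D538G minus wild-type difference in DMSO was 2.31 (exact permutation p = 0.1, the smallest for 3 against 2 libraries). Within replicate 2 it was 1.41 (exact permutation p = 0.5). Under E2 the genotypes differed by −0.44 (exact permutation p = 0.433, adjusted p = 0.619). With libraries as units, the smallest p that these designs allow is 0.0286 for 4 against 4 libraries, 0.00476 for 6 against 4 and 0.00217 for 6 against 6. Genotype differed between clones, 2 wild-type and 3 D538G, and means per clone were not compared for peak numbers.

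Single regions at MYC also differed in DMSO before adjustment. M17, M27 and M30 had peaks in 6 of 6 D538G DMSO and 1 of 4 wild-type DMSO libraries (Fisher's exact p = 0.0333 and adjusted p = 1 for each). Of all 32172 regions tested in that comparison, 3.57% reached an unadjusted p under the threshold of 0.05. Without any 1 of the 3 short wild-type DMSO lists, 0 regions of the windows did. With all libraries, those 3 were the only ones of the 38 tested in both windows to do so. None of the 38 had a peak in all D538G and no wild-type DMSO library, a pattern found at 0.814% of all regions. Between E2 and DMSO in D538G cells 0 of 41 regions did by Fisher's exact test, adjusted or not, against a background of 0.0200%. Shares of libraries were larger under E2 at 11 of these 41 regions, smaller at 14 and equal at 16. Over all 44920 regions tested they were larger at 23.5%, smaller at 32.6% and equal at 43.9%, near the shares in the windows. Between wild-type E2 and DMSO they were larger under E2 at 30 of 35 window regions, beside 90.7% of all 29233 tested. Between genotypes in DMSO they were larger in D538G at 33 of 38 window regions, beside 82.2% of all 32172 tested.

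At CCND1 fewer regions recurred across libraries than at MYC, and the most recurrent was a region beyond the gene, on its FGF19 side. In gene order the protein-coding genes LTO1 and FGF19 follow CCND1 on that side. Which gene this region acts on was not tested. Region C48 (chromosome 11, 69511501 to 69512910) had a peak in 18 libraries: 2 of 4 in wild-type DMSO, 4 of 4 in wild-type E2 and 6 of 6 in each D538G group. The 2 libraries without it had 51 and 45 peaks in all and none in the CCND1 window. The 18 summits at C48 spanned 73 bp around a median of 69512151. C48 was the strongest peak of the window in 17 of those 18 lists. The exception was wild-type E2 clone 2 replicate 2, led by C29.

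C48 ranked high in almost every list that held it. In wild-type DMSO its percentile was 92.9 in clone 1 replicate 2 and 66.9 in clone 2 replicate 2. In wild-type E2 it was 95.9 and 97.4 in clone 1 and 95.6 and 97.3 in clone 2. In D538G DMSO the lowest, median and highest percentiles were 90.5, 97.3 and 99.7, and in D538G E2 they were 82.1, 97.6 and 99.2. The D538G and wild-type E2 groups overlapped, and the lower wild-type DMSO value and the lowest D538G E2 value came from the 1080-peak and the 1977-peak list. Region C50 (69515201 to 69516022), 3.45 kb further on by median summit, had a peak in 15 libraries. Its percentile in wild-type E2 was 13.2 and 93.9 in clone 1 and 5.00 and 92.4 in clone 2, so the 2 replicates of each clone were far apart.

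Peaks at and just before the start of CCND1 were found mostly in the longer lists. Region C30 (69455160 to 69459891), which covers that start, had a peak in 11 libraries: 1 of 4 in wild-type DMSO, 3 of 4 in wild-type E2, 4 of 6 in D538G DMSO and 3 of 6 in D538G E2. In wild-type cells its percentile was 89.2 in DMSO clone 1 replicate 2, and in E2 it was 6.19 and 95.4 in clone 1 and 95.7 in clone 2 replicate 2. The D538G DMSO values ran from 30.5 to 92.6 and the D538G E2 values from 48.7 to 94.8. Region C29 (69451078 to 69454410), 3.71 kb away by median summit on the side away from the gene body, had a peak in 14 libraries, 2, 4, 4 and 4 in the same order of groups. Summits spanned 2650 bp at C29 and 3838 bp at C30, against 73 bp at C48, so merged regions near the gene start held more than 1 summit position. C30 and C48 lay 54.4 kb apart.

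Upstream of CCND1, 1 region had the same E2 pattern as M6, M7, M9, M10 and M11. Region C18 (69356254 to 69356965), 101.1 kb from C30 by median summit, had a peak in 4 of 4 wild-type E2 and 0 of 4 wild-type DMSO libraries (Fisher's exact p = 0.0286, adjusted p = 0.306). In wild-type E2 its percentile was 52.1 and 28.8 in clone 1 and 64.1 and 54.6 in clone 2. Among D538G libraries it was found in DMSO clone 1 replicate 2 at percentile 30.7 and in E2 clone 1 replicate 1 and clone 3 replicate 1 at 80.8 and 81.9. Farther upstream, the 17 regions C1 to C17 covered 45.3 kb, and 13 of them had a peak in a single library.

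Regions of the CCND1 window recurred in fewer libraries than those of the MYC window, which was not tested. A peak in only 1 library was found at 30 of 52 CCND1 regions (57.7%) and at 5 of 30 MYC regions (16.7%), beside 43.8% of all regions. The median region had a peak in 1 library at CCND1 and in 6.5 at MYC. The 5 such MYC regions were all in D538G DMSO clone 1 replicate 2. Of the CCND1 ones, 10 were in that library, 10 in D538G DMSO clone 2 replicate 2 and 7 in D538G E2 clone 3 replicate 2, which are the 3 longest lists of the series. Peaks in D538G libraries only were found at 7 MYC regions (23.3%) and 30 CCND1 regions (57.7%), beside 56.3% of all regions. Peaks in D538G libraries only, and in at least 2 of them, were found at 2 of 30 MYC and 3 of 52 CCND1 regions, beside 15.4% of all regions. Wild-type libraries alone held 0 MYC and 3 CCND1 regions (5.77%), beside 3.78% of all regions. D538G had 12 libraries and wild type 8.

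Peak numbers at CCND1 gave no comparison past the test. Wild-type DMSO libraries had 0 and 21 peaks in clone 1 and 0 and 3 in clone 2, and wild-type E2 libraries had 5 and 20 in clone 1 and 4 and 16 in clone 2. D538G DMSO libraries had a lowest, median and highest number of 1, 8 and 34, and D538G E2 libraries 1, 7 and 29. More peaks under E2 were found in 3 of 4 wild-type and 3 of 6 D538G pairs. On the log2(peaks + 1) scale the means were 1.61 ± 2.12 and 3.35 ± 1.04 in wild-type DMSO and E2 (SD, n = 4 each) and 3.06 ± 1.86 and 2.85 ± 1.47 in D538G DMSO and E2 (SD, n = 6 each). All groups overlapped.

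The wild-type E2 difference at CCND1 was 1.73 (exact permutation p = 0.2 and 0.5 after adjustment). Without wild-type DMSO clone 1 replicate 2 it was 2.68 (exact permutation p = 0.0286), the only 1 of 8 single omissions to pass 0.05. In D538G cells it was −0.22 (exact permutation p = 0.83, adjusted p = 0.921), with a per-pair spread of 3.30 (SD, n = 6). D538G exceeded wild type by 1.45 in DMSO (exact permutation p = 0.262, adjusted p = 0.524) and differed from it by −0.50 under E2 (exact permutation p = 0.562, adjusted p = 0.702). The E2 effect differed between genotypes by −1.95 (exact permutation p = 0.314, adjusted p = 0.524). Without the D538G clone 2 replicate 1 pair, E2 minus DMSO in D538G was −0.82 (exact permutation p = 0.429) and the difference in E2 effect −2.55 (exact permutation p = 0.214). D538G minus wild type was then 1.86 in DMSO (exact permutation p = 0.19) and −0.69 under E2 (exact permutation p = 0.468).

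**Figure D4:**
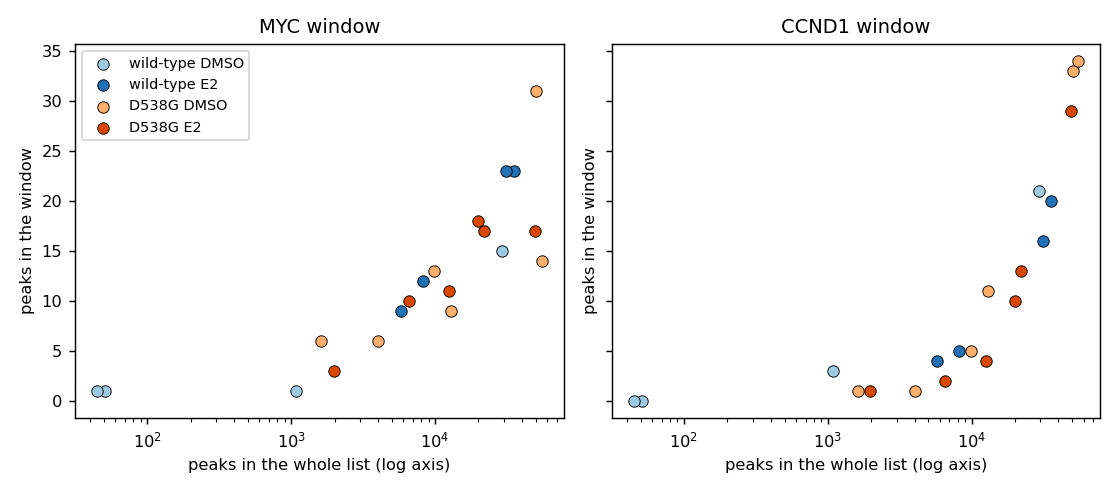
Number of peaks in each window (y axis) against the number of peaks in the whole list (x axis, log scale), 1 point per library. The 2 shortest lists, of 45 and 51 peaks, held 1 MYC and 0 CCND1 peaks each, and D538G DMSO clone 1 replicate 2, with 50382, held 31 and 33; the longest list, with 54903, held 14 and 34.

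Longer lists mostly held more peaks in the windows, though the longest had 14 MYC peaks and a 19832-peak list 18. The part of list length in the comparisons was not tested, beyond counting peaks relative to the list and among its strongest. As peaks per 10000 of the list, the sign turned for wild-type E2 minus DMSO (−97.1 at MYC, −2.79 at CCND1), for D538G minus wild type in DMSO (−94.7 and −2.92) and for the difference in E2 effect (93.6 and 1.66). None of these 6 passed the exact permutation test, with p from 0.0714 to 0.886, and 1 peak in the 45-peak list counts as 222 in this unit. When only the 1000 strongest peaks of a list were counted, M22 was kept in 15 libraries, M27 in 12, M17 in 9 and M30 in 4. M22 was then present in 3 wild-type DMSO, 3 wild-type E2, 4 D538G DMSO and 5 D538G E2 libraries, and M17 in 0, 0, 5 and 4. C48 was kept in 17 libraries, in 1 of 4 wild-type DMSO and in all of the other groups. The D538G minus wild-type difference in DMSO at MYC was then 1.10 (exact permutation p = 0.0286, adjusted p = 0.167), and the wild-type E2 difference was 0.50 (exact permutation p = 0.629). The 6 regions with an unadjusted p under the threshold between wild-type E2 and DMSO fell to 0. For 2 wild-type DMSO lists the whole list is shorter than 1000 peaks.

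Both windows were compared with windows of their size elsewhere. In windows of the MYC width tiled over the genome (7621 with a peak in at least 1 library), the median held between 0 and 3 peaks depending on the library. At most 13.4% and at least 0.144% of them held at least as many peaks as the MYC window in the same library. For the CCND1 width (9073 tiles) that share lay between 1.04% and 26.9% over the 18 libraries with a peak there.

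The strongest CCND1 peak was also set against the strongest MYC peak of the same list. Over the 18 lists with both, the mean percentile was 94.0 at CCND1 and 95.8 at MYC, a difference of −1.71 ± 5.04 (SD, n = 18; sign-flip permutation p = 0.174, two-sided). The MYC peak ranked higher in 12 lists and the CCND1 peak in 6. Without wild-type DMSO clone 2 replicate 2 the difference was −2.29 (sign-flip permutation p = 0.0249), the only 1 of 18 single omissions to pass 0.05. Split after the values were seen, lists of at least 25000 peaks had the CCND1 peak higher in 4 of 6, and shorter lists in 2 of 12.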

How the data were processed

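Each of 20 precipitated libraries had 1 deposited peak list in the narrowPeak layout, so peaks were called per library. The submitters' processing notes name Bowtie, MACS2, DESeq2 and the hg19 build, without versions, roles or order. Each deposited list gave the authors' signal value of a peak, whose scale is not given in the sources used here, and a −log10 p and −log10 q. The deposited score column was not used for any value. The summit offset was the authors' own. Every deposited −log10 p was above 10.

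From these lists, 5 peaks outside chromosomes 1 to 22, X and Y were set aside, and peaks were merged into regions by an overlap of at least 1 bp. Regions bound in 2 or more of the compared libraries were tested by two-sided Fisher's exact test, with Benjamini-Hochberg adjustment over all regions. Peak numbers on the log2(peaks + 1) scale were compared by exact two-sided permutation over libraries, with adjustment over the 10 window tests. The difference in E2 effect permuted genotype over E2 minus DMSO differences of the same clone and replicate number. The Fisher step was run on simulated lists. Outside the regions set to differ, every simulated library had the same chance of a peak, so lists of unequal length were not covered. Python 3.11.15, numpy 2.4.6, pandas 2.3.3, scipy 1.17.1 and matplotlib 3.10.9 were used.

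Read depth is not known, so few reads, weak enrichment and few bound sites cannot be told apart as sources of a short list. Named regions were the 4 of each window with a peak in most libraries and every region with an unadjusted Fisher p under 0.05 in any comparison; others named are marked as chosen after their values were seen. Members, windows and comparisons were chosen with earlier results of these data known. No annotation of the build was used: gene starts are named from general knowledge, distances to genes were not computed, and a planned wider list of proliferation genes was not run. Alternatives were a replicate block, a stricter q, the 1000 strongest peaks, peaks per 10000 of the list, bases covered, wider windows and each library left out; leaving out the pair with the Ctl-named list and comparing within a replicate number were chosen after seeing the data.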

Additional observations from a re-analysis of the deposited data

Results flagged for a closer look

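In groups of 4 or 6 libraries, 8 of 31 combinations of a measure and a group held a library that stood apart from the rest by Dixon's criterion at the 95% level, which chance meets in about 1 in 20 groups. The measures overlap, so these are not separate events. Wild-type DMSO clone 1 replicate 2 held 15 MYC peaks over 5877 bases, where the next library had 1 peak and 264 bases at most. The same library held 21 CCND1 peaks over 10289 bases, next to 3 peaks and 791 bases. Its list was by far the longest of its group, with 29118 peaks. D538G DMSO clone 1 replicate 2 held 31 MYC peaks over 19295 bases, next to 14 peaks and 7438 bases, in a list of 50382. Relative to its list, D538G DMSO clone 3 replicate 2 had 37.1 MYC peaks per 10000, next to 14.9, in a list of 1619. The strongest CCND1 peak of D538G E2 clone 2 replicate 2 stood at percentile 82.1, where the next lowest stood at 96.4.

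The E2 effect on the number of MYC peaks differed between genotypes by −2.30 on the log2 scale (exact permutation p = 0.0286, adjusted p = 0.238), with more peaks under E2 in 4 of 4 wild-type and 4 of 6 D538G pairs. In each wild-type pair the whole list was also longer under E2.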

How the results depend on the processing

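Of 269 alternative values, 207 kept their direction and their side of the unadjusted threshold of 0.05 (counts within 1.5 times), and no adjusted p for a peak number fell below 0.119. Peaks per 10000 of the list turned the sign at MYC to −97.1 (wild-type E2 minus DMSO), −94.7 (D538G minus wild type in DMSO) and 93.6 (difference in E2 effect), and at CCND1 to −2.79, −2.92 and 1.66; in this unit 1 peak in the 45-peak list counts as 222. For D538G E2 minus DMSO, near 0 throughout, the sign turned with a stricter q (0.17 at MYC, 0.071 at CCND1), bases covered (0.021 and 0.0021), MYC windows widened by 50 kb (0.046) and within replicate 1 (0.69 and 0.81). D538G minus wild type under E2 turned to 0.45 at MYC with the 1000 strongest peaks, and within replicate 1 to 0.49 at MYC and 0.74 at CCND1.

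With a replicate block, the D538G minus wild-type difference in DMSO at MYC stayed at 1.86 (exact permutation p = 0.05) and the 6 regions of wild-type E2 against DMSO fell to 0, since 4 pairs cannot go below p = 0.125; no other comparison crossed the threshold. Deviations of the E2 and DMSO libraries of a pair from their group means had Pearson r = 0.56 at MYC and 0.93 at CCND1 over 4 wild-type pairs. Over 6 D538G pairs r was −0.41 and −0.96. These correlations were not tested, and so few pairs leave them uncertain. The same MYC difference was 2.02 without the Ctl-named pair, 2.31 within replicate 1 and 1.41 within replicate 2, none past 0.05. The difference in E2 effect at MYC lost the threshold with the 1000 strongest peaks (−0.65), within replicate 1 (−1.82) and within replicate 2 (−2.78), whereas at CCND1 it passed with the 1000 strongest peaks (−0.75, exact permutation p = 0.0333). The 6 regions fell to 0 with the 1000 strongest peaks, and M6, the 1 region between genotypes under E2, fell to 0 there and with a stricter q. With absent windows at percentile 0, CCND1 minus MYC was −7.32 (sign-flip permutation p = 0.0434). The causes were not tested.

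Leaving out 1 library or pair at a time gave, at MYC, 2.05 to 3.05 for wild-type E2 minus DMSO, −0.16 to 0.32 for D538G E2 minus DMSO, 1.58 to 2.61 for D538G minus wild type in DMSO, −0.68 to −0.12 under E2 and −2.87 to −1.87 for the difference in E2 effect. At CCND1 the ranges were 1.19 to 2.68, −0.63 to 0.20, 0.91 to 2.40, −0.91 to −0.13 and −2.77 to −1.17. The DMSO difference at MYC missed 0.05 in 9 of 10 cases, and the difference in E2 effect there in 6 of 10. Counts of regions with an unadjusted Fisher p under 0.05 ranged over 6 to 9 (wild-type E2 against DMSO), 0 to 0 (D538G E2 against DMSO), 0 to 4 (genotypes in DMSO, 0 without any 1 of the 3 short wild-type DMSO lists) and 1 to 2 (genotypes under E2), and CCND1 minus MYC percentiles over −2.29 to −0.85.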
